A study of Chlorocebus aethiops with 12 samples.

Results

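The FKBP immunophilins were followed through array probes carrying the RefSeq record of FKBP5 (NM_004117), FKBP4 (NM_002014), FKBP1B (NM_004116), FKBP2 (NM_004470), FKBP3 (NM_002013), FKBP8 (NM_012181), FKBP9 (NM_007270), FKBP10 (NM_021939), FKBP11 (NM_016594) or FKBP14 (NM_017946). Of these 10 records, 9 had a probe, with 14 probes of 41000 between them, and FKBP1B was not analysed here. All 14 probes passed the filter on dim probes, and the 9 records were among 20037 features tested, a feature being 1 transcript record or, where the files gave none, 1 probe.

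FKBP proteins are peptidyl-prolyl isomerases, enzymes that turn the peptide bond before a proline and that bind the immunosuppressants FK506 or rapamycin to differing degrees. FKBP5 and FKBP4 also dock on the chaperone HSP90 through tetratricopeptide repeats and so enter the cytoplasmic complex of the glucocorticoid receptor: FKBP5 lowers the receptor's affinity for hormone, whereas FKBP4 favours hormone binding and transport to the nucleus. In human and rodent cells the FKBP5 gene is itself a direct target of the hormone-bound receptor, which closes a short negative feedback loop.

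RNA came from COS-1 cells, an SV40-transformed kidney line of the African green monkey, and was hybridised to 1-colour human whole-genome arrays. In all 4 groups the cells were transiently transfected with mouse CCRP carrying a V5 tag, a co-chaperone of nuclear receptors, together with FLAG-tagged human glucocorticoid receptor. The groups were Y30E with dexamethasone (Y30E-DEX), Y30E with DMSO (Y30E-DMSO), Y30F with dexamethasone (Y30F-DEX) and Y30F with DMSO (Y30F-DMSO), with 3 arrays each. Y30E and Y30F are receptors with glutamate or phenylalanine in place of a tyrosine in the N-terminal region. None of the groups used here was transfected with the unmutated receptor, and none lacked transfected CCRP. No group went without a transfected receptor. A response through the transfected receptor and one through any receptor of the cells' own therefore cannot be told apart. Starting 40 h after transfection, dexamethasone, a synthetic glucocorticoid, was given at 100 nM for 6 h, and DMSO, its vehicle, at 0.1%. The series title contrasts receptors whose N- and C-terminal parts do or do not interact, and the labels used here do not assign the mutants to these classes. Transfection was transient, so transfected and untransfected cells were measured together, and a change in fewer cells cannot be told apart from a smaller change per cell.

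Between 60.5% and 67.0% of 43376 non-control spots per array were well above background. The 14 FKBP probes were well above background on all 12 arrays, none was saturated, and none of their 168 values was marked as an outlier. The arrays lay on 3 slides of 4. Slide 1 held Y30F-DEX replicate 1 and the 3 Y30F-DMSO arrays. Slide 2 held Y30F-DEX replicates 2 and 3 with Y30E-DMSO replicates 1 and 2. Slide 3 held the 3 Y30E-DEX arrays with Y30E-DMSO replicate 3. Most of each dexamethasone comparison therefore ran across slides. At a given treatment no slide held both mutants, so a difference between mutants and one between slides cannot be told apart there. Human probes were used on monkey RNA, so a probe was compared only with itself. The RNA's cell type was not checked against marker genes here, because the files name records and not genes.

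The first question was whether dexamethasone altered FKBP transcripts in cells carrying either receptor mutant. FKBP5 rose about 1.5-fold under both mutants, and none of the 8 other measured members passed the test. FKBP5 was thus 1 of 9 members called higher with Y30E, where 1.49% of all features were called higher, and 1 of 9 with Y30F, where 1.43% were. No member was called lower in either mutant, against 0.619% of features with Y30E and 0.389% with Y30F. The median member change was -0.01 with Y30E and -0.00 with Y30F on the log2 scale, beside medians over all features of -0.00 and 0.02. The background moved with single arrays. With Y30E, 423 features (2.11%) were called in either direction. Without Y30E-DMSO replicate 1, 2 or 3 the count was 184, 204 or 596. Without Y30E-DEX replicate 1, 2 or 3 it was 228, 255 or 243. With Y30F, 365 (1.82%) were called, against 1367, 237 and 207 without Y30F-DEX replicate 1, 2 or 3. Without Y30F-DMSO replicate 1, 2 or 3 the count was 245, 318 or 273. FKBP5 was the single member called in each of these fits.

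FKBP5 gave processed signals of 1616.1, 1635.3 and 1453.6 in the 3 Y30E-DEX arrays, against 1016.4, 975.8 and 1100.2 in the Y30E-DMSO arrays. With Y30F the signals were 1713.9, 1467.7 and 1840.3 in DEX arrays, against 1002.5, 1154.4 and 1147.6 in DMSO arrays. Every dexamethasone array lay above every DMSO array, before any scaling between arrays.

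Levels below are log2 signals minus the 75th percentile of the same array, so that 0 stands for a spot as bright as that percentile. FKBP5 levels were 0.99, 1.00 and 0.94 in Y30E-DEX, against 0.33, 0.47 and 0.37 in Y30E-DMSO. They were 1.03, 0.97 and 1.11 in Y30F-DEX, against 0.28, 0.50 and 0.39 in Y30F-DMSO. The dexamethasone and DMSO arrays formed separate ranges in both mutants, and the order of group means was Y30F-DEX (1.04 ± 0.07), Y30E-DEX (0.98 ± 0.03), Y30F-DMSO (0.39 ± 0.11) and Y30E-DMSO (0.39 ± 0.07) (SD, n = 3 each). The 2 dexamethasone groups did not differ beyond their spread, nor did the 2 DMSO groups.

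**Figure D1:**
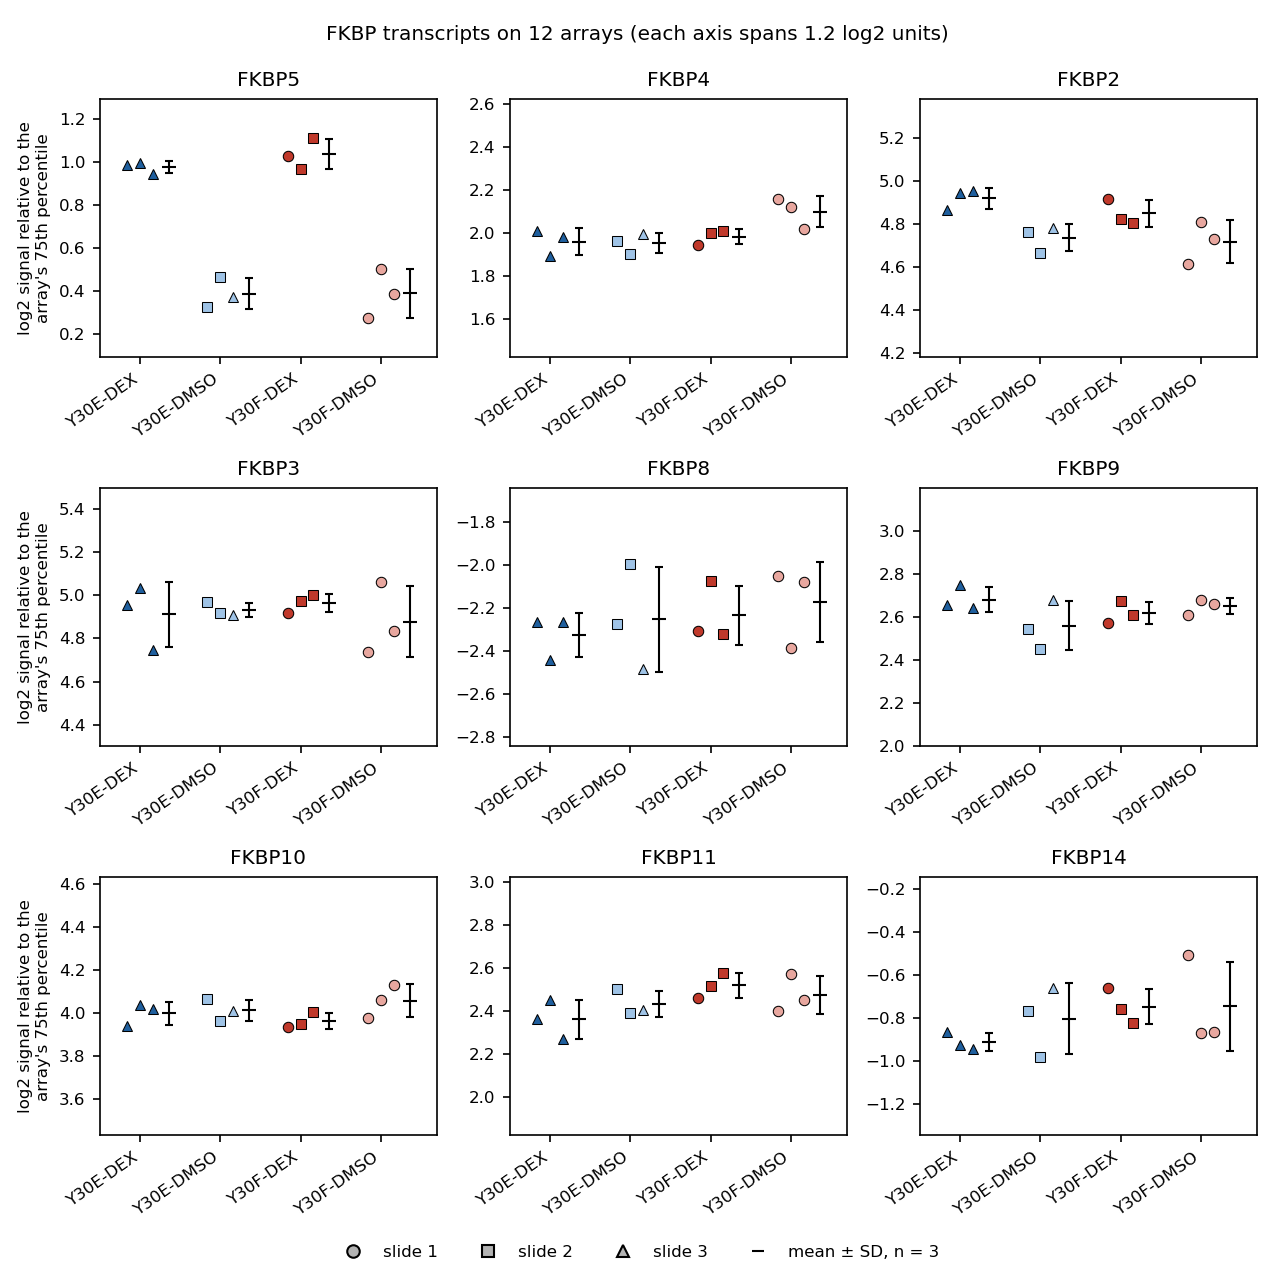
Levels of the 9 measured FKBP transcripts in each of 12 arrays, as log2 signal relative to the array's 75th percentile, by group; points are arrays, marked by slide, and bars are mean ± SD (n = 3). FKBP5 shows dexamethasone arrays at 0.94 to 1.11, all above the DMSO arrays at 0.28 to 0.50, while the groups of the other members overlap in most panels.

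With Y30E, FKBP5 rose by 0.59 ± 0.07 on the log2 scale (SE), or 1.5-fold with a 95% interval of 1.36 to 1.66 (limma, Benjamini-Hochberg adjusted p = 0.00126). With Y30F, it rose by 0.65 ± 0.07, or 1.57-fold with an interval of 1.41 to 1.73 (limma, adjusted p = 6.49e-04). Averaged over both mutants the rise was 0.62 ± 0.05 (limma, adjusted p = 3.58e-05), and FKBP5 was the only member called in that comparison, where 3.77% of features were. All 6 dexamethasone arrays exceeded all 6 DMSO arrays for FKBP5 alone among the 9 members, while 2.52% of features separated in this way and direction.

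The FKBP5 rise was larger than the median rise of the features called higher, but far from the largest. It ranked 92nd among 542 features called higher on average over the mutants, whose median rise was 0.33. Within single mutants it ranked 93rd of 299 with Y30E, where the median rise was 0.48, and 102nd of 287 with Y30F, where it was 0.54. The average changes of the 8 other members lay between -0.07 and 0.16.

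**Figure D2:**
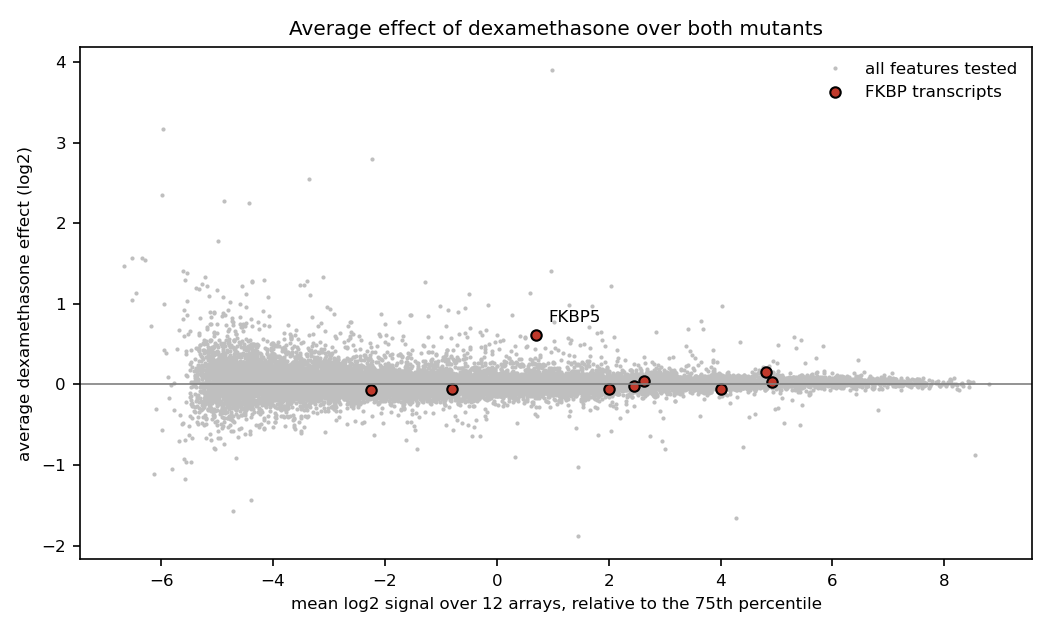
Dexamethasone change averaged over both receptor mutants (log2 dexamethasone minus DMSO) against mean level over the 12 arrays (log2 relative to the 75th percentile) for 20037 features, with the 9 FKBP members as larger points. FKBP5 lies at 0.62, and the other members lie between -0.07 and 0.16.

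Slide and treatment were partly confounded, so the FKBP5 change was also read within slides. On slide 3 the 3 Y30E-DEX arrays exceeded the single Y30E-DMSO array by 0.60 ± 0.08, and on slide 1 the single Y30F-DEX array exceeded the 3 Y30F-DMSO arrays by 0.64 ± 0.13. These fits, in which the lone array is assumed to vary like the rest, did not pass the test (limma, adjusted p = 0.113 and 0.318), as few features did in either (47 and 6). With slide as a fixed block the changes were 0.60 ± 0.10 with Y30E and 0.64 ± 0.10 with Y30F. These are the same within-slide differences, resting on the same lone arrays, so the block is no separate check of the slides. With the spread pooled over all 12 arrays, both passed (limma, adjusted p = 0.0420 and 0.0402). Between slides within a group, FKBP5 on slide 2 minus the other slide was 0.02 in Y30E-DMSO and 0.01 in Y30F-DEX, each from 2 arrays against 1. The residual SD of FKBP5 was 0.08, and the SD of that difference over all features was 0.305 and 0.356. No group lay on both slide 1 and slide 3, so a shift between those slides was not tested.

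A second, dimmer FKBP5 probe (A_24_P38081) repeated the direction of the brighter probe (A_23_P111206) used above. Its signals were 105.0, 94.1 and 85.2 in Y30E-DEX, against 61.1, 55.7 and 68.3 in Y30E-DMSO. They were 102.0, 95.7 and 97.1 in Y30F-DEX, against 85.8, 59.2 and 72.3 in Y30F-DMSO. Within each mutant the dexamethasone arrays lay above the DMSO arrays. Across mutants the signal of Y30F-DMSO replicate 1 slightly exceeded that of Y30E-DEX replicate 3, and after scaling to the 75th percentile no DMSO array reached a dexamethasone array. In a fit of all probes its change was 0.60 ± 0.11 with Y30E (limma, adjusted p = 0.0229) and 0.50 ± 0.11 with Y30F (adjusted p = 0.0600), so this probe passed the test with Y30E and missed it with Y30F. Averaged over the mutants its rise was 0.55 ± 0.08 (limma, adjusted p = 0.00273). In that fit FKBP5 supplied both of the 14 probes called on average, and none of the 12 probes of other members was called in any comparison. Of the 25570 probes in that fit, 913 were called on average, 506 with Y30E and 421 with Y30F. At such shares, few or no calls among 12 probes are usual.

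**Figure D3:**
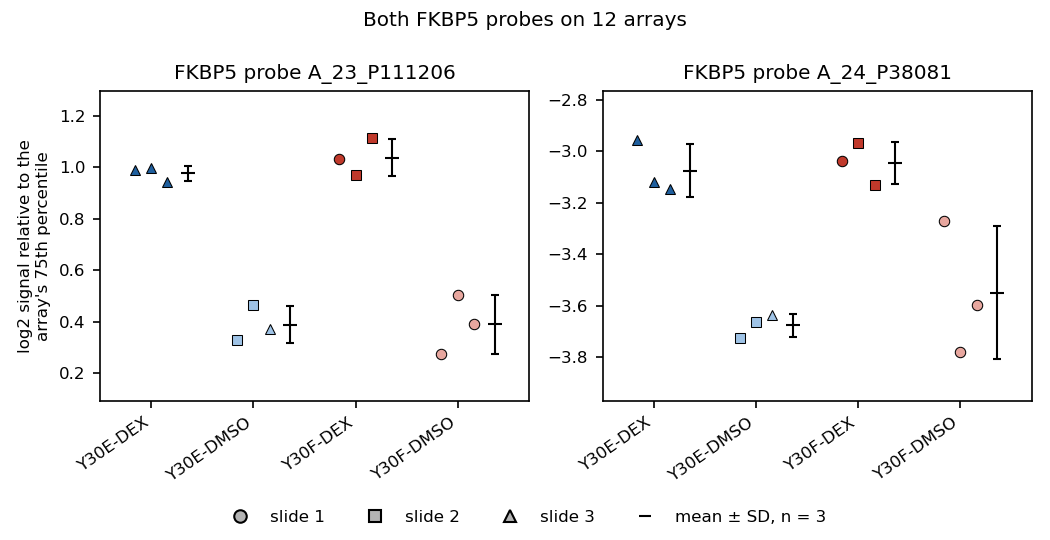
Both FKBP5 probes in each array, as log2 signal relative to the array's 75th percentile, by group; points are arrays, marked by slide, and bars are mean ± SD (n = 3). Dexamethasone arrays lie above DMSO arrays on both probes, and Y30F-DMSO replicate 1 is the highest DMSO array on the dimmer probe.

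The next question was whether the 2 receptor mutants differed in the response. No difference in the FKBP5 response was detected: the change with Y30E minus the change with Y30F was -0.06 ± 0.09, with a 95% interval of -0.27 to 0.15 (limma, adjusted p = 0.884). On the dimmer probe the same difference was 0.10 ± 0.16, with an interval of -0.25 to 0.45. Differences within these intervals were not excluded by 3 arrays a group. Of all features, 0% passed the adjusted test for this difference by limma, while 2255 (11.3%) had an unadjusted p under 0.05, none of them among the 9 members. Without Y30F-DEX replicate 1 the test called 1130 features and without Y30E-DMSO replicate 3 it called 125, again with 0 of the 9 members.

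FKBP5 levels also showed no detected difference between the mutants at a given treatment. The mutants shared no slide at a given treatment, so these comparisons cannot separate mutant from slide. Under dexamethasone, Y30E minus Y30F was -0.06 ± 0.07 (interval -0.21 to 0.09, limma, adjusted p = 0.733). Under DMSO it was -0.00 ± 0.07 (interval -0.15 to 0.15, adjusted p = 0.996).

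FKBP4, the co-chaperone that shares the HSP90 docking site with FKBP5, did not pass the test in either mutant. Its signals were 3272.1, 3034.6 and 2980.5 in Y30E-DEX, against 3152.9, 2633.7 and 3383.6 in Y30E-DMSO, a difference in level of 0.01 ± 0.05 (limma, adjusted p = 0.970). They were 3223.2, 2989.1 and 3420.9 in Y30F-DEX, against 3683.1, 3537.1 and 3549.5 in Y30F-DMSO, a difference in level of -0.12 ± 0.05 (adjusted p = 0.379). With Y30F the groups did not overlap, as was true in the lower direction for 5.61% of features, and FKBP5 was the single member without overlap in the higher direction, as were 9.85% of features. On the dimmer FKBP4 probe (A_32_P71788) the values were -0.11 ± 0.06 with Y30E and -0.04 ± 0.06 with Y30F.

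FKBP8, a member with tetratricopeptide repeats that is anchored in the mitochondrial outer membrane and binds BCL2, had the widest spread among the members. Its signals ran from 150.6 to 169.0 in Y30E-DEX, against 151.5 to 176.7 in Y30E-DMSO. With Y30F they ran from 169.4 to 177.4 in DEX arrays, against 155.5 to 207.3 in DMSO arrays. The groups overlapped in both mutants. The differences were -0.07 ± 0.13 with Y30E and -0.06 ± 0.13 with Y30F, and the residual SD was 0.18, against 0.06 for FKBP4. The 2 Y30E-DMSO arrays on slide 2 averaged 0.35 higher than the one on slide 3, and within slide 3 the Y30E difference was 0.16 ± 0.11.

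FKBP3, a nuclear member that binds nucleic acid, changed by -0.02 ± 0.09 with Y30E and 0.09 ± 0.09 with Y30F, and neither value passed. Its levels were 4.75 to 5.04 in Y30E-DEX, against 4.91 to 4.97 in Y30E-DMSO, and 4.92 to 5.00 in Y30F-DEX, against 4.74 to 5.06 in Y30F-DMSO. The ranges overlapped in both mutants.

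The remaining members, FKBP2, FKBP9, FKBP10, FKBP11 and FKBP14, carry out folding in the secretory pathway and reside in the endoplasmic reticulum. FKBP2 came nearest to a change after FKBP5. Its levels were 4.86, 4.94 and 4.95 in Y30E-DEX, against 4.76, 4.66 and 4.78 in Y30E-DMSO, with no overlap. They were 4.92, 4.82 and 4.80 in Y30F-DEX, against 4.61, 4.81 and 4.73 in Y30F-DMSO, with overlap through Y30F-DMSO replicate 2. The differences of 0.18 ± 0.06 with Y30E and 0.13 ± 0.06 with Y30F did not pass (limma, adjusted p = 0.216 and 0.394), and neither did their average of 0.16 ± 0.04 (adjusted p = 0.0901). That average passed without Y30F-DMSO replicate 2, the array behind the overlap, at 0.18 (limma, adjusted p = 0.048). Leaving out any other single array did not make it pass. FKBP5 and FKBP2 were the 2 members whose groups did not overlap in the higher direction with Y30E, where 11.3% of features were so.

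FKBP10 and FKBP14 act on procollagen, and inherited loss of either causes a connective tissue disorder in humans. FKBP10 differed by -0.01 ± 0.05 with Y30E and -0.09 ± 0.05 with Y30F. FKBP14 differed by -0.11 ± 0.11 with Y30E and -0.00 ± 0.11 with Y30F, and its dimmer probe by 0.06 ± 0.14 and 0.03 ± 0.14. FKBP14 levels ran from -0.94 to -0.86 in Y30E-DEX, against -0.98 to -0.66 in Y30E-DMSO, so the treatments overlapped.

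FKBP9, a lumenal member, was measured by 3 probes. Its brightest probe differed by 0.12 ± 0.06 with Y30E and -0.03 ± 0.06 with Y30F, and across the 3 probes the values ran from -0.06 to 0.12 with Y30E and from -0.09 to 0.02 with Y30F. FKBP11, a membrane-anchored member abundant in secretory cells, differed by -0.07 ± 0.07 with Y30E and 0.04 ± 0.07 with Y30F. None of these values passed the test.

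For the 8 members other than FKBP5, the arrays bounded the size of any change. Their 95% intervals lay within a 1.5-fold change in either direction for 8 of 8 members in both mutants, and within a 1.25-fold change for 6 of 8 with Y30E and 7 of 8 with Y30F. FKBP5's own estimates were 1.5-fold with Y30E and 1.57-fold with Y30F, and their intervals (1.36 to 1.66 and 1.41 to 1.73) include 1.5-fold. The share of all features within these bounds is not given here. The median SE over all features was 0.08 in either mutant, against 0.05 to 0.13 for the 8 members.

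**Figure D4:**
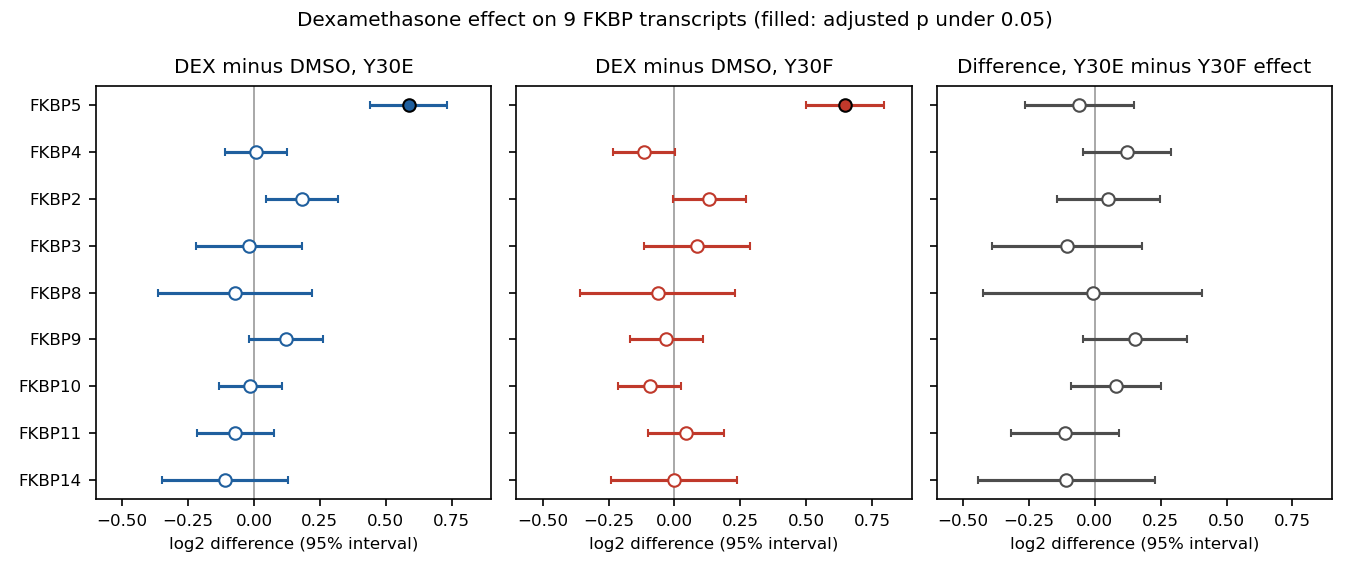
Log2 changes of the 9 measured FKBP members with 95% intervals from limma, for dexamethasone minus DMSO with Y30E and with Y30F, and for the difference of these effects (Y30E minus Y30F). FKBP5 lies at 0.59 and 0.65 with intervals clear of 0, and the intervals of the difference include 0 for all 9 members.

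Levels of the other members were also set between the mutants, again with no slide shared by the mutants at a given treatment. Under dexamethasone 0 of 9 members passed the limma test, as did 0.015% of features, with 1 member and 2729 features (13.6%) at an unadjusted p under 0.05. That member was FKBP11, at 2.37, 2.45 and 2.27 in Y30E-DEX, against 2.46, 2.52 and 2.58 in Y30F-DEX, a difference of -0.16 ± 0.07 (adjusted p = 0.345). FKBP14 stood at -0.86, -0.93 and -0.94 in Y30E-DEX, against -0.66, -0.76 and -0.82 in Y30F-DEX, a difference of -0.16 ± 0.11 (adjusted p = 0.537). The groups of both genes did not overlap on these probes, lower with Y30E, which held for 9.1% of features. On the dimmer FKBP14 probe (A_24_P312119) the groups overlapped, and the difference was -0.08 ± 0.14.

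Under DMSO 0 of 9 members passed the limma test, as did 0.00998% of features, with 1 member and 2777 features (13.9%) at an unadjusted p under 0.05. That member was FKBP4, at 1.96, 1.90 and 1.99 in Y30E-DMSO, against 2.15, 2.12 and 2.02 in Y30F-DMSO. The difference was -0.15 ± 0.05 (limma, adjusted p = 0.265), without overlap, as held in the lower direction for 5.68% of features. The dimmer FKBP4 probe gave 0.00 ± 0.06. Scaling each array by its median instead gave -0.33 for the brighter probe (limma, adjusted p = 0.045). That setting also moved the median of all features in this comparison by -0.18, and it called 1379 features lower and 199 higher.

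The change of FKBP5 relative to other family members on the same array does not depend on scaling between arrays. This description was chosen after the values were seen and carries no test. The log2 difference between FKBP5 and FKBP4 was 0.58 larger in Y30E-DEX than in Y30E-DMSO, and 0.76 larger in Y30F-DEX than in Y30F-DMSO. Against each of the 8 other members in turn it was larger by 0.40 to 0.70 with Y30E and by 0.52 to 0.76 with Y30F. In all 8 pairs the dexamethasone and DMSO arrays did not overlap in either mutant. FKBP5 itself enters every pair, so the 8 pairs are not separate results. The share of all features that FKBP5 would separate from in this way is not given here.

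**Figure D5:**
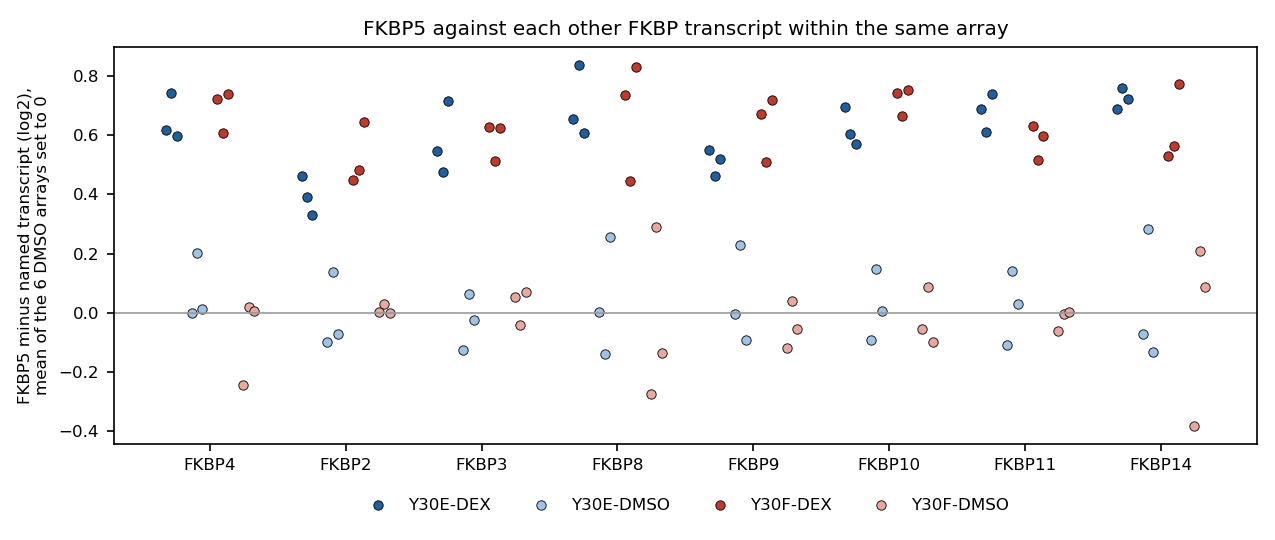
FKBP5 minus each of the 8 other members within an array (log2), with the mean of the 6 DMSO arrays of each pair set to 0; points are arrays. Dexamethasone arrays lie above the DMSO arrays of the same mutant in all 8 pairs.

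Among the other members, FKBP2 followed FKBP5 most closely over the 12 arrays (Pearson r = 0.78), and the remaining 7 had r between -0.45 and 0.30. Of 20028 other features, 204 had r over 0.9 with FKBP5. The closest were the records NM_003804 (r = 0.987) and NM_145804 (r = 0.985), which the files do not pair with gene names. These values are descriptions over arrays that fall into a dexamethasone set and a DMSO set and share slides.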

How the data were processed

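Total RNA of 12 COS-1 samples, 3 per group, was Cy3-labelled and put on 1-colour Agilent human arrays of the 4x44 format, with an array for each sample, as the labels' protocols give it. The intensity deposited for a spot is Feature Extraction's processed green signal (version 12 in the submitters' processing notes), with background subtracted and trends across the array removed, per the file headers, and with no normalization between arrays. The series table held the same values, with 0 differences. Descriptions list both transfected constructs for every sample, whereas another label lists 1 per mutant, and the descriptions were followed. The labels do not say that replicates were separate cultures, so their spread, on which the p-values rest, may be technical. The number of arrays limits the precision.

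From each array's log2 signal the 75th percentile over non-control spots (706 to 876 in signal) was subtracted. Spots marked as outliers were left out (89 to 154 per array) and spots of a probe averaged. A probe was kept if every array of some group had a share of 0.5 or more of that probe's spots well above background (25570 of 41000), and the brightest probe stood for a record. Group means of all 12 arrays were fitted with limma 3.58.1 (lmFit and eBayes, R 4.3.3, 8 residual degrees of freedom, statmod 1.5.0 for the random block), with Benjamini-Hochberg adjustment over 20037 features and a threshold of 0.05. The code was tested on simulated data.

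The 10 records and the lists were chosen with earlier results of these data known, and all measured members are described. Features resembling FKBP5 were to be named by gene symbol. With no table of symbols used here, 2 record IDs are given instead, and lists of other pathway genes and cell type markers, the transfected receptor and probe sequences were not analysed here. The alternatives, 27 for single-mutant changes, were quantile normalization, median scaling, normexp (offset 50, on the median signal), the series table, no or a stricter filter, every probe as a feature, slide as a fixed or random block, 1 slide alone, no slide 2, a replicate block, only the groups compared, a trended robust prior, each array left out, and the next brightest probe, the last chosen after seeing the data. For FKBP5 in a single mutant, the series table, both filters and every probe as a feature left the estimate unchanged. So did the replicate block, only the groups compared, the prior and leaving out an array of the other mutant. Slide as a fixed block, 1 slide alone and no slide 2 shared 1 estimate per mutant.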

Additional observations from a re-analysis of the deposited data

How the results depend on the processing

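The FKBP5 change kept its direction under all 27 alternatives in each mutant, many of which cannot move it. It was 0.53 to 0.64 with Y30E and 0.50 to 0.70 with Y30F. Its average over the mutants passed in all 25 that could be run (0.55 to 0.65, limma). With each array left out in turn the change was 0.56 to 0.63 with Y30E, 0.59 to 0.70 with Y30F and 0.59 to 0.65 on average, and the difference of the effects was -0.12 to -0.00. The call was lost within 1 slide (0.60, adjusted p = 0.113 with Y30E and 0.64, adjusted p = 0.318 with Y30F) and without slide 2 (0.60, adjusted p = 0.101 with Y30E and 0.64, adjusted p = 0.0934 with Y30F), which use fewer arrays. With Y30F it was also lost on the next brightest probe (0.50, adjusted p = 0.0581). In these fits 0 members were called, in place of 1. Within 1 slide and without slide 2, where single arrays stood for a group, far fewer features were called in all. On the next brightest probe with Y30F, 364 features were called, against 365. On average over the mutants 2 members, FKBP5 and FKBP2, were called with a trended robust prior (FKBP2 0.16, adjusted p = 0.0452) and without Y30F-DMSO replicate 2, and the range over single arrays left out was 1 to 2.

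Median scaling moved the median change of all features by 0.05 with Y30E, -0.13 with Y30F and 0.18 for their difference. Under it the difference of FKBP5 effects was 0.12 (adjusted p = 0.501) in place of -0.06. Relative to the median feature it was -0.05 under both scalings, which is fixed in advance because rescaling shifts all features of an array alike. Under DMSO 1 of 9 members (FKBP4) differed between the mutants with median scaling, where 1578 of 20037 features were called, and 0 did otherwise. Of the features called with Y30E, 70.7% were higher, against 56.0% with slide as a fixed block and 47.9% without slide 2. With Y30F 78.6% were, against 46.1% with median scaling and 65.2% with quantile normalization. Over the alternatives the count of all features called ran from 47 to 596 with Y30E (423 as reported), from 6 to 1367 with Y30F (365), from 202 to 913 on average (755), from 0 to 1130 for the difference (0), from 0 to 1578 between the mutants under DMSO (2) and from 0 to 66 under dexamethasone (3).

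No pairing by replicate number was detected (2 of 18 correlations of deviations were over 0.1, range -0.43 to 0.27). Because groups share slides, pairing is not excluded. With the replicate block FKBP5 changed by 0.59 with Y30E (adjusted p = 0.00495) and 0.65 with Y30F (adjusted p = 0.00326), and 308 and 272 features were called. For the 8 other members, 1245 of 1248 values kept their side of the threshold, 3 became called and 0 lost a call. Among the 1248, 89 changed sign, none of them called, and 62 moved by more than the member's residual SD, with 26 in both counts. The 3 were FKBP2 on average, under both settings above, and FKBP4 under DMSO. Why these values changed was not tested.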

Other observations

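Slide 2 held arrays of 2 groups that also lay on another slide, which gives the members' shift between slides within a group. In Y30E-DMSO, slide 2 minus slide 3 was 0.35 for FKBP8, -0.21 for FKBP14 and -0.18 for FKBP9, and between -0.07 and 0.04 for the other 6 members. In Y30F-DEX, slide 2 minus slide 1 was -0.13 for FKBP14, 0.11 for FKBP8 and -0.10 for FKBP2, and between 0.01 and 0.09 for the other 6. FKBP14 within slide 3 was -0.25 in Y30E-DEX minus Y30E-DMSO, where 3 arrays stood against 1, and it did not pass the test. It was the within-slide change furthest from 0 among the members other than FKBP5. On the dimmer FKBP14 probe the Y30E-DEX levels were -4.37, -3.88 and -4.23, on both sides of the -4.18 of that Y30E-DMSO array.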
